A study of Mus musculus with 20 samples.

Results

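The change in expression during mesoderm culture was compared between mouse ES-cell-derived cells that lack the de novo DNA methyltransferases Dnmt3a and Dnmt3b (DKO, Dnmt3a-/-Dnmt3b-/-) and wild-type (WT) cells. The quantity followed for each gene was the DKO change minus the WT change, that is, (DKO Dex- minus DKO Flk1(+)) minus (WT Dex- minus WT Flk1(+)), called the difference below. It rested on 8 of the 20 arrays of the series, 2 in each of 4 groups, and was tested in all 18194 genes, each read by 1 probe set. Both lines were of 129sv/Jae origin. Flk1(+) cells were mesoderm cells from ES cells grown for 4 days on type IV collagen and sorted for Flk1 and PDGFRα. Dex- cells were such sorted cells after 4 more days on type IV collagen with no dexamethasone (Dex). The Dex- arrays and replicate 2 of the Flk1(+) arrays came from 1 transgenic clone per genotype, which carries Gata4GR, a fusion of Gata4 with the hormone-binding part of the glucocorticoid receptor under the CAG promoter. Dex activates the fusion protein, and none of the 8 cultures received it. Replicate 1 of the Flk1(+) arrays is from the parental lines, which lack the transgene. The study states that few Flk1(+) cells were recovered from DKO ES cells on collagen, and that this condition was not stable. By its methods, more DKO than WT ES cells were plated on each collagen dish. Genotype, line and the number of cells plated cannot be told apart in these cells. In replicate 1 the culture change also holds the step from the parental line to the clone and from 1 chip lot to another. The other 12 arrays (undifferentiated ES cells, primitive endoderm and Dex+ cells of both genotypes) served only for the error estimate and for a few values given below.

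Dnmt3a and Dnmt3b set new methyl marks on cytosines that are followed by guanine (CpG), and in the embryo they mark many germ cell gene promoters at about the time of implantation. Methylation of a CpG-rich promoter usually goes with a silent gene. Flk1(+) mesoderm kept on type IV collagen turns largely into vascular mural cells, which are rich in smooth muscle actin, while genes of the primitive streak are turned off.

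Values are log2 expression values from the array, so that 1 unit is 2-fold. Errors after ± are the standard error of the linear model for a change and the SD over 2 arrays for a level. A gene was called where its adjusted p was under 0.05 and its change at least 2-fold, and a gene is said to rise, fall or be higher or lower only where it was called. Of a difference, higher means that the DKO change lay above the WT change, whichever sign the changes had.

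The starting cells and the end cells carried the markers of their labels. Kdr, which encodes Flk1, fell by 4.04 in DKO cells and by 4.13 in WT cells, with a difference of 0.08 ± 0.43 that was not called. Of all genes 8.23% rose and 8.39% fell in DKO cells, and 7.49% rose and 7.79% fell in WT cells. Of 22 genes of mural and smooth muscle cells, 17 rose and 1 fell in DKO cells, and 14 rose and 1 fell in WT cells. Acta2, which encodes smooth muscle actin, stood at 14.95 and 14.91 in DKO Dex- cells and at 11.38 and 11.59 in DKO Flk1(+) cells, against 15.11 and 15.09 in WT Dex- cells and 10.91 and 9.48 in WT Flk1(+) cells. Its difference was -1.47 ± 0.57 and was not called (adjusted p = 0.23). The arrays read RNA of whole cultures, in which less RNA per cell and fewer cells with the RNA cannot be told apart. Of 13 genes of nascent mesoderm, 11 fell in DKO cells and 12 in WT cells, and none rose in either. Markers of other cell types gave few called differences, where 1.82% of all genes were higher and 1.08% lower. None was called among 18 genes of cardiac muscle and 15 of cartilage, bone and skeletal muscle. Among 19 genes of blood 1 was higher, Csf1r, and none lower, and among 22 endothelial genes 1 was higher, Eng, and 1 lower, Flt1.

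The deleted genes gave a check on the labels. Dnmt3b was at 5.08 and 4.97 in DKO Dex- cells and at 8.11 and 7.47 in DKO Flk1(+) cells, against 6.59 and 6.65 in WT Dex- cells and 12.03 and 11.47 in WT Flk1(+) cells. Dnmt3a averaged 6.66 ± 0.08 in DKO Dex- cells and 6.64 ± 0.21 in DKO Flk1(+) cells, against 8.17 ± 0.24 in WT Dex- cells and 8.62 ± 0.27 in WT Flk1(+) cells (SD, n = 2 each). Both were lower in DKO than in WT cells in either state, and no DKO array reached a WT array of the same state. The difference of Dnmt3b was called at 2.37 ± 0.31. It fell by 2.76 in DKO cells and by 5.13 in WT cells. That of Dnmt3a was 0.47 ± 0.27 and was not called. Gata4 fell in both genotypes and differed by -0.62 ± 0.28, also not called.

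To show the sequence context, the promoter windows of the leading genes are printed here. Each window runs from 250 bases before to 50 bases after the annotated start, 5′ to 3′ on the strand of the gene, from RefSeq on GRCm38.p6, and capitals mark each CpG, the dinucleotide that Dnmt3a and Dnmt3b methylate. The first genes shown are the 4 with the largest increase of the difference that have a window. Fgf5 lies at chr5:98253934-98254233 on the plus strand with 29 CpGs, Trap1a at chrX:139333433-139333732 on the plus strand with 8, Xist at chrX:103483184-103483483 on the minus strand with 15, and Laptm5 at chr4:130913066-130913365 on the plus strand with 9.
Fgf5: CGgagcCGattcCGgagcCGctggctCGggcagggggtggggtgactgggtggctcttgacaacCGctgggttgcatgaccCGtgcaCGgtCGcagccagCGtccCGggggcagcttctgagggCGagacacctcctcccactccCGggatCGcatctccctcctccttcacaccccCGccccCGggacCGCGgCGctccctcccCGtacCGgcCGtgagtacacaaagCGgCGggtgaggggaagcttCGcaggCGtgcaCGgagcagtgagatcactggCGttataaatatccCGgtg
Trap1a: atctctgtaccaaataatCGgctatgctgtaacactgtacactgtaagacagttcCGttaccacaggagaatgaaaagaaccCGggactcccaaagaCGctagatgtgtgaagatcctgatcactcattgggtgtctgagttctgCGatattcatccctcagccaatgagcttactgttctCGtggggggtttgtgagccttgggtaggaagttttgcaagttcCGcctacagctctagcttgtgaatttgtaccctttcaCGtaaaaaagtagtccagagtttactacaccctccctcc
Xist: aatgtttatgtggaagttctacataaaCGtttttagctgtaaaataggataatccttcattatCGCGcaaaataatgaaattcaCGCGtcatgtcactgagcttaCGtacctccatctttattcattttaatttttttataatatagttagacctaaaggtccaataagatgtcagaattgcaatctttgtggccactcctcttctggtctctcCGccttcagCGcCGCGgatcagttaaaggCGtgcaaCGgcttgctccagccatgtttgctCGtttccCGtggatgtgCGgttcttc
Laptm5: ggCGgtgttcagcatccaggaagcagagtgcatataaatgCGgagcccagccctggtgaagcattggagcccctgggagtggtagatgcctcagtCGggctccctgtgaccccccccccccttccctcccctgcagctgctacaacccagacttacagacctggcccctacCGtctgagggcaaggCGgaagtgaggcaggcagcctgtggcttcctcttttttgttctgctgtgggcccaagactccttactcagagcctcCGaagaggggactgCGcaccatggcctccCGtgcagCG

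The other windows belong to germ cell genes and were chosen after their values were seen. Dazl lies at chr17:50293571-50293870 on the minus strand with 28 CpGs, Asz1 at chr6:18109012-18109311 on the minus strand with 17, and Sohlh2 at chr3:55181794-55182093 on the plus strand with 17.
Dazl: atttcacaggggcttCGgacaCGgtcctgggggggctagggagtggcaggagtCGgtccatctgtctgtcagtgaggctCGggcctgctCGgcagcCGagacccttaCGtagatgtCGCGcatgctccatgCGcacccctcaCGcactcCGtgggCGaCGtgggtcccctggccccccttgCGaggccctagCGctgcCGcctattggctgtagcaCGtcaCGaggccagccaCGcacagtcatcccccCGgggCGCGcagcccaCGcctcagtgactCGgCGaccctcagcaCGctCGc
Asz1: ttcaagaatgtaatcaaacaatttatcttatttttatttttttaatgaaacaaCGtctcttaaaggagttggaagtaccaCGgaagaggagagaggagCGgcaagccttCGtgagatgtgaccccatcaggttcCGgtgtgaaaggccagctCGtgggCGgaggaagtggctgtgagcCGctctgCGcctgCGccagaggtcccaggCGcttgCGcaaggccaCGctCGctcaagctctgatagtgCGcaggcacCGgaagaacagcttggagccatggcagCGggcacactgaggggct
Sohlh2: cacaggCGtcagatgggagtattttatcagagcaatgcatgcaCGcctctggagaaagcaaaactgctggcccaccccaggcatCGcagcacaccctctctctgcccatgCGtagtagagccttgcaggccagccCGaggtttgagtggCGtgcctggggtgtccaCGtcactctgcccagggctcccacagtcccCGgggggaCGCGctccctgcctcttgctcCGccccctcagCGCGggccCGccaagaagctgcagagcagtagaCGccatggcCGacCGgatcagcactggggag

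Of the 11792 genes with exactly 1 such window, 56.4% had at least 15 CpGs, and the median was 17. The counts of the printed windows ranged from 8 in Trap1a to 29 in Fgf5.

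The difference was called in 529 of the 18194 genes (2.91%). It was higher in 332 genes (1.82%) and lower in 197 (1.08%). The culture change itself was called far more often, in 3024 genes (16.6%) in DKO cells and in 2779 genes (15.3%) in WT cells. Over all genes the median difference was 0.005 with an SD of 0.55. Within each replicate number taken alone, all 529 genes lay on the called side, and the difference was at least 2-fold in 466 of them in replicate 1, whose 4 arrays were scanned on 1 day, and in 472 in replicate 2. These are the arrays that made the calls. At 2 arrays a group, the state labels can be relabelled within the genotypes in 36 ways. A permutation test of a single gene over these could give no two-sided p under 0.0556. It was not run, and it would not be exact for the difference in genes that change in culture. The calls rest on the error shared by all 20 arrays. With only the 8 arrays in the fit 129 genes were called, 86 higher and 43 lower, and 34 of the 65 genes named by the rule lost their call. Among these were Trap1a, Laptm5, Morc1, Hpgd, Il33, Stard8, Dcaf12l1 and Ctla2a of the leading genes, and Dazl, Tex19.1, H2-D1, H2-K1, Pdgfra, Ccnd1, Nnat and Id2 of the lists. DKO and WT arrays of a state with the same number shared scan day and chip lot, and with these pairs as a block 809 genes were called, 495 higher and 314 lower. The direction counts depended on single Flk1(+) arrays. Without replicate 1 of WT Flk1(+) cells 350 genes were higher and 403 lower, and without replicate 2 of WT Flk1(+) cells 566 were higher and 186 lower. Without replicate 1 of DKO Dex- cells, 262 were higher and 124 lower.

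**Figure D1:**
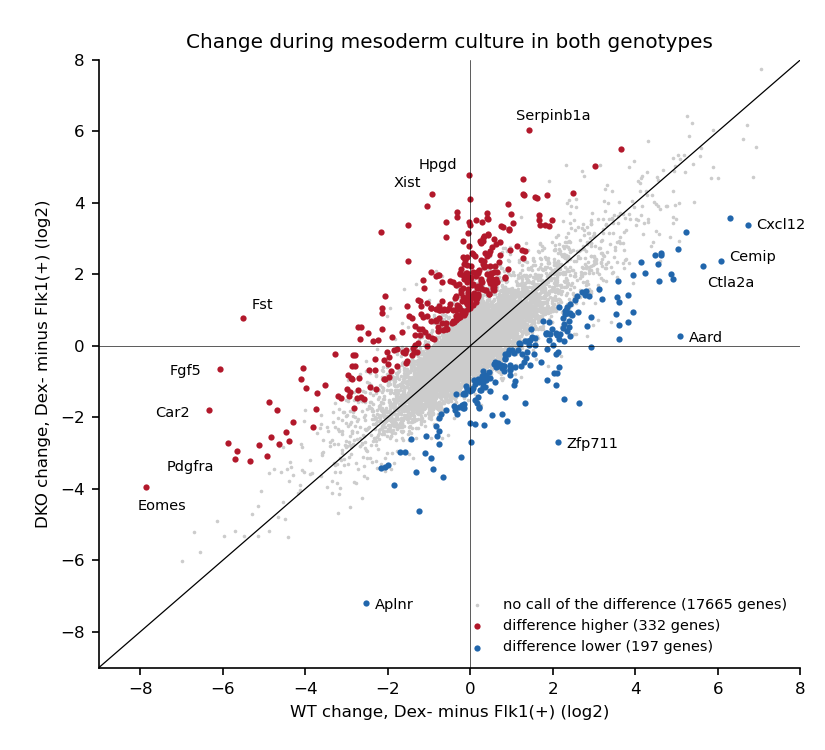
Culture change of each of 18194 genes, Dex- minus Flk1(+) in log2, with DKO cells on the vertical and WT cells on the horizontal axis. Points on the diagonal changed alike; 332 genes with a higher difference (red) lie above it and 197 with a lower difference (blue) below it.

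The higher genes were mostly genes that rose in DKO cells alone. Of the 332, 177 rose in DKO cells with no call in WT cells, 62 fell in WT cells with no call in DKO cells, 31 fell in both and fell less in DKO cells, 21 rose in both and rose more in DKO cells, and 11 rose in DKO cells and fell in WT cells. The remaining 30 had no call of either change. Of the 197 lower genes, 67 rose in WT cells with no call in DKO cells, 50 fell in DKO cells with no call in WT cells, 31 rose in both, 12 fell in both and 6 fell in DKO cells and rose in WT cells, with 31 called in neither. The genotypes differed in fewer genes before culture. DKO Flk1(+) cells differed from WT Flk1(+) cells in 127 genes (0.698%), and DKO Dex- cells from WT Dex- cells in 1063 (5.84%). Of the 332 higher genes 259 were higher in DKO than in WT Dex- cells, 240 of these with no call in Flk1(+) cells, and 153 of the 197 lower genes were lower in DKO Dex- cells, 152 of these with no call in Flk1(+) cells. Of all genes 3.51% were higher and 2.34% lower in DKO than in WT Dex- cells. The difference is made of these gaps, and nothing is read from their counts. The Flk1(+) groups had the most spread between replicates, with 698 genes at least 2-fold apart in DKO and 880 in WT cells, against 95 in DKO and 244 in WT Dex- cells. Without replicate 1 of DKO Flk1(+) cells 385 genes differed between the Flk1(+) groups, and without replicate 1 or without replicate 2 of WT Flk1(+) cells 394 or 349 did.

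Among the 12 largest increases, 4 genes fell in WT cells and fell less or were not called in DKO cells. Fst, which encodes the secreted activin antagonist follistatin, was at 10.68 and 10.41 in DKO Dex- cells and at 9.61 and 9.89 in DKO Flk1(+) cells, against 4.79 and 6.26 in WT Dex- cells and 10.73 and 11.33 in WT Flk1(+) cells. Only the WT Dex- arrays stood low, and the difference was 6.30 ± 0.49 (limma, adjusted p = 8.62e-06). Fgf5, a growth factor of the epiblast, was also low in the WT Dex- arrays alone, with 9.66 and 9.87 in DKO Dex- cells and 10.21 and 10.61 in DKO Flk1(+) cells, against 4.73 and 4.10 in WT Dex- cells and 10.04 and 10.95 in WT Flk1(+) cells. Its difference was 5.44 ± 0.71. Car2, a carbonic anhydrase, and Eomes, a T-box factor of the primitive streak, fell in both genotypes, but fell less in DKO cells. Car2 fell by 1.81 in DKO cells and by 6.32 in WT cells, a difference of 4.52 ± 0.38. Eomes was at 9.47 and 10.11 in DKO Dex- cells, against 5.81 and 5.93 in WT Dex- cells, and averaged 13.75 ± 0.36 in DKO Flk1(+) cells and 13.73 ± 0.25 in WT Flk1(+) cells (SD, n = 2 each). Before culture the genotypes overlapped at Eomes, and after it the DKO arrays stood above the WT arrays, with a difference of 3.90 ± 0.47.

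The other 8 of these genes rose in DKO cells. Xist, the RNA that coats the inactive X chromosome of female cells, was at 10.80 and 11.68 in DKO Dex- cells and at 6.46 and 7.50 in DKO Flk1(+) cells, against 5.99 and 5.21 in WT Dex- cells and 5.91 and 7.17 in WT Flk1(+) cells. The Flk1(+) groups overlapped, and only the DKO Dex- arrays stood apart (difference 5.20 ± 0.62). Trap1a, an X-linked testis and tumour antigen gene, and Morc1, which is needed for male meiosis in the mouse, rose in DKO and fell in WT cells. Trap1a reached 12.26 and 12.74 in DKO Dex- cells with 9.07 and 9.54 in DKO Flk1(+) cells, against 4.78 and 4.37 in WT Dex- cells and 7.99 and 5.48 in WT Flk1(+) cells. Morc1 reached 8.30 and 8.80 in DKO Dex- cells with 4.69 and 5.64 in DKO Flk1(+) cells, against 3.33 and 3.39 in WT Dex- cells and 5.89 and 3.86 in WT Flk1(+) cells. Their differences were 5.35 ± 0.78 and 4.90 ± 0.63. For both genes the 2 arrays of WT Flk1(+) cells lay over 2 units apart, with the parental line the higher one.

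Serpinb1a, an inhibitor of neutrophil proteases, rose by 6.03 in DKO cells and by 1.41 in WT cells, a difference of 4.62 ± 0.59. Sprr2f, a small proline-rich protein of cornified epithelia, was near 4 in every array but those of DKO Dex- cells. It was at 7.68 and 7.71 in DKO Dex- cells and at 3.83 and 3.37 in DKO Flk1(+) cells, against 3.89 and 3.55 in WT Dex- cells and 3.78 and 3.65 in WT Flk1(+) cells, a difference of 4.09 ± 0.21. The last 3 were less secure. Il33, a cytokine of barrier tissues, differed by 4.04 ± 0.81, and the call was lost without replicate 1 of DKO Dex- cells, at 3.48, and without both parental Flk1(+) arrays, at 3.09. Laptm5, a lysosomal membrane protein of blood cells, and Hpgd, which breaks down prostaglandins, differed by 4.98 ± 0.98 and 4.81 ± 1.00. Both were read by probe sets whose design allows matches to other transcripts, and the probe sets without this mark gave 0.062 for Laptm5 and 0.47 for Hpgd, neither called. The call of Laptm5 was also lost without replicate 2 of DKO Dex- cells, at 4.58, and that of Hpgd without replicate 1 of DKO or of WT Dex- cells, at 4.61 and 4.71.

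**Figure D2:**
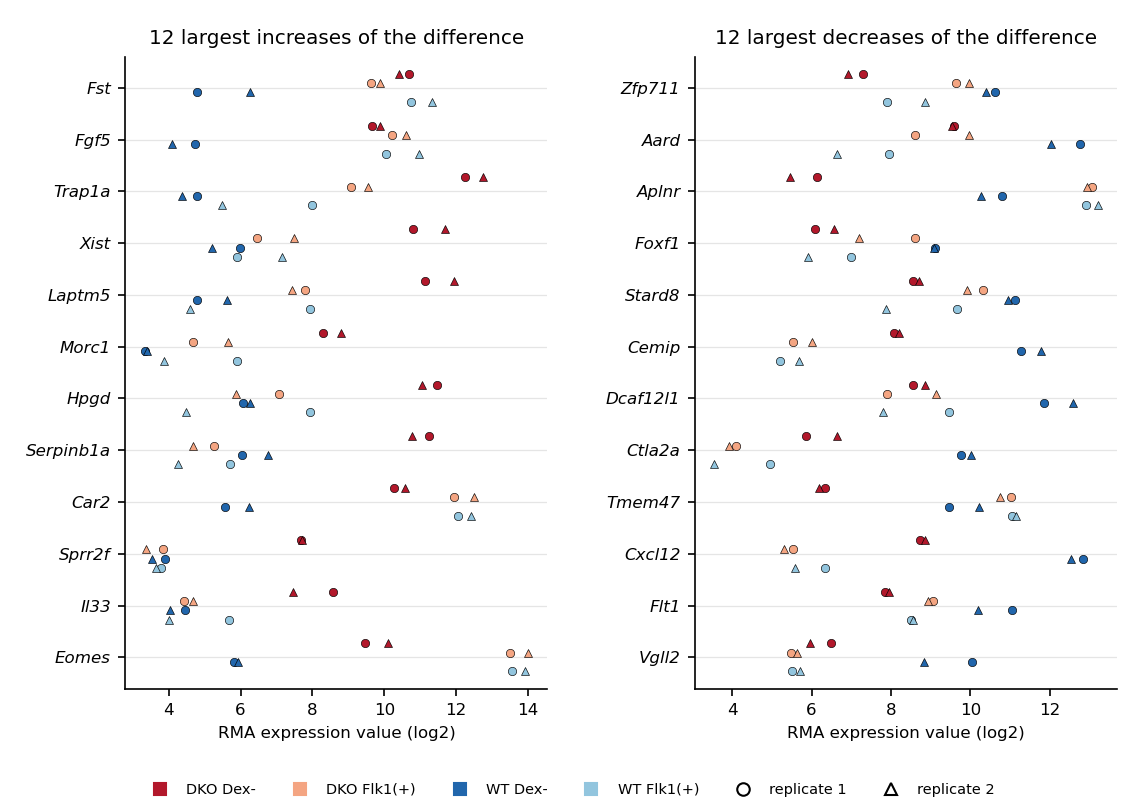
RMA expression value (log2, horizontal axis) in each of the 8 arrays for the 12 genes with the largest increase and the 12 with the largest decrease of the difference. In the left panel the WT Dex- arrays of Fst, Fgf5, Car2 and Eomes stand below all others, and in the right panel those of Cemip, Cxcl12 and Ctla2a stand above all others.

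The largest decreases held receptors, a chemokine and mesoderm factors. Aplnr, the apelin receptor of nascent mesoderm and vessels, was at 6.14 and 5.47 in DKO Dex- cells and at 13.05 and 12.93 in DKO Flk1(+) cells, against 10.80 and 10.26 in WT Dex- cells and 12.89 and 13.21 in WT Flk1(+) cells. It fell in both genotypes, by 7.18 in DKO cells and by 2.52 in WT cells, so that the difference was -4.66 ± 0.33 (limma, adjusted p = 3.85e-06). Cxcl12, a chemokine made by stromal and perivascular cells, rose by 3.38 in DKO cells and by 6.72 in WT cells. It stood at 8.74 and 8.85 in DKO Dex- cells and at 5.54 and 5.30 in DKO Flk1(+) cells, against 12.84 and 12.53 in WT Dex- cells and 6.34 and 5.59 in WT Flk1(+) cells, a difference of -3.35 ± 0.41. Cemip, a hyaluronan-degrading factor, and Ctla2a, an inhibitor of cysteine proteases, also rose in both genotypes and more in WT cells. Their differences were -3.70 ± 0.31 and -3.39 ± 0.50.

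Foxf1, a forkhead factor of lateral plate mesoderm, went opposite ways. It was at 6.09 and 6.56 in DKO Dex- cells and at 8.62 and 7.20 in DKO Flk1(+) cells, against 9.10 and 9.07 in WT Dex- cells and 6.99 and 5.90 in WT Flk1(+) cells, a difference of -4.23 ± 0.52. Flt1, a receptor for VEGF, fell by 1.10 in DKO cells and rose by 2.08 in WT cells, with levels of 7.84 and 7.95 in DKO Dex- cells and 9.05 and 8.94 in DKO Flk1(+) cells, against 11.03 and 10.19 in WT Dex- cells and 8.52 and 8.55 in WT Flk1(+) cells. The lowest Dex- arrays at Flt1 were those of DKO cells, which lay below all Flk1(+) arrays, while the WT Dex- arrays lay above them (difference -3.18 ± 0.35). Vgll2, a cofactor of TEAD factors, and Aard rose in WT cells with no call in DKO cells, and differed by -3.16 ± 0.45 and -4.81 ± 0.66. The remaining 4 genes, Zfp711, Stard8, Dcaf12l1 and Tmem47, are X-linked and are described with that chromosome.

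Germ cell genes were the list with the most calls. Of 29 measured genes of germ cells and meiosis, 10 were higher and none lower, against 1.82% and 1.08% of all genes, and the median difference was 0.85, against 0.005 over all genes. The list was written with earlier results of these data known. In DKO cells 12 of the 29 rose and 1 fell, and in WT cells none rose and 1 fell. Before culture 13 of the 29 were already higher in DKO than in WT Flk1(+) cells and none lower, against 0.396% and 0.302% of all genes. In Dex- cells 18 were higher and none lower, against 3.51% and 2.34%. Dazl, an RNA-binding protein of germ cells, was at 8.95 and 8.42 in DKO Dex- cells and at 4.15 and 6.16 in DKO Flk1(+) cells, against 4.31 and 3.96 in WT Dex- cells and 4.01 and 4.00 in WT Flk1(+) cells. Every WT array and the parental DKO Flk1(+) array lay near 4, and the difference was 3.40 ± 0.64. Asz1, a piRNA pathway protein, stood at 10.01 and 9.82 in DKO Dex- cells and at 5.92 and 7.17 in DKO Flk1(+) cells, against 4.59 and 4.19 in WT Dex- cells and 4.36 and 4.46 in WT Flk1(+) cells. Sohlh2, a transcription factor of germ cell differentiation, stood at 11.65 and 11.67 in DKO Dex- cells and at 8.48 and 8.53 in DKO Flk1(+) cells, against 6.04 and 5.86 in WT Dex- cells and 5.70 and 6.31 in WT Flk1(+) cells. Both were already higher in DKO than in WT cells before culture, by 2.13 for Asz1 and 2.50 for Sohlh2, and differed by 3.39 ± 0.40 and 3.21 ± 0.37. Their promoter windows, printed above, hold 17 CpGs each, and that of Dazl holds 28.

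In the other called germ cell genes the DKO Dex- arrays also stood above all the rest of the 8. Ddx4, the germ cell helicase also named Vasa, rose by 1.11 in DKO cells and fell by 1.53 in WT cells (difference 2.64 ± 0.36). Mael and Tex19.1, both of transposon defence in the mouse germ line, differed by 2.55 ± 0.28 and 3.01 ± 0.61. Stk31, Sycp1, Hormad1 and Rpl39l, taken up here to complete the 10 after their values were seen, differed by 2.52, 2.45, 2.22 and 1.85. Sycp1 and Hormad1 encode proteins of meiotic chromosomes, and Rpl39l is a ribosomal protein paralog of the testis. Tex19.1 lost its call without replicate 2 of DKO Dex- cells, at 2.77, without replicate 2 of WT Dex- cells, at 2.43, and without both parental Flk1(+) arrays, at 1.85. Of the 19 members with no call, Piwil1, a piRNA-binding protein, was at 5.01 and 5.03 in DKO Dex- cells and 4.87 and 4.94 in WT Dex- cells. Without replicate 2 of DKO Flk1(+) cells 15 of the 29 were higher, and without both parental Flk1(+) arrays 9 were higher and 2 lower. Of the X-linked Rhox and testis genes 1 of 11, Trap1a, was higher and none lower, with a median difference of 1.17. This median was 0.09 without both parental Flk1(+) arrays and 0.76 without replicate 1 of WT Flk1(+) cells, and without replicate 2 of WT Flk1(+) cells 5 of the 11 were higher. Rhox6, Mageb16 and Rhox9 had differences of 3.19, 2.99 and 2.74 and were not called (adjusted p = 0.184, 0.25 and 0.0712).

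**Figure D3:**
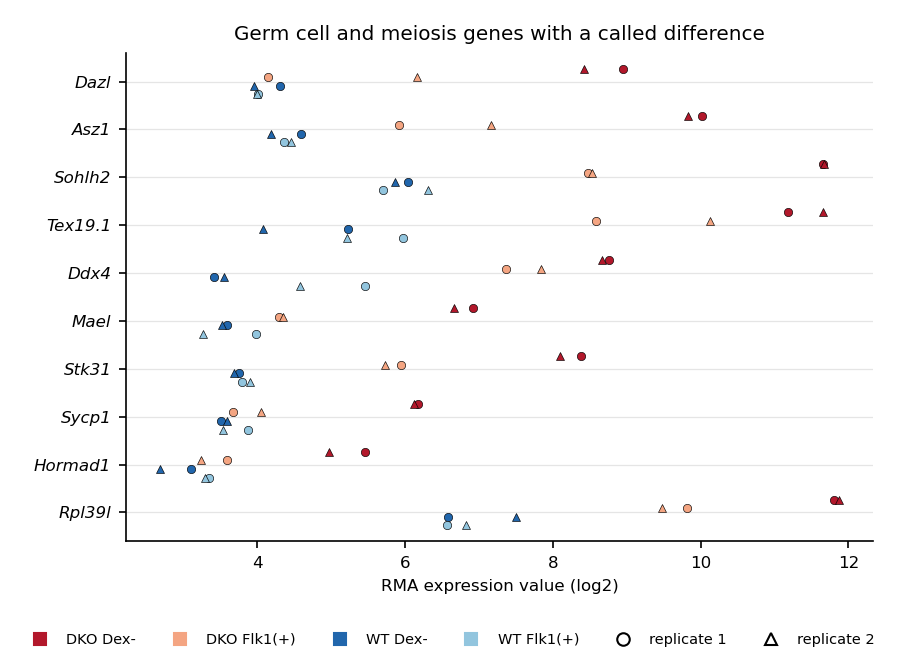
RMA expression value (log2, horizontal axis) in each of the 8 arrays for the 10 germ cell and meiosis genes with a called difference. The DKO Dex- arrays stand above all others for each gene, and the DKO Flk1(+) arrays of Asz1, Sohlh2, Ddx4 and Stk31 lie between them and the WT arrays.

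Mesoderm genes and pathway genes moved in smaller numbers. Of 16 lateral plate and heart field factors none was higher and 2 were lower, Foxf1 and Isl1, with a median of -0.60. The count of lower factors was 7 without replicate 1 of WT Flk1(+) cells, 6 without both parental Flk1(+) arrays or with the pairs within a state as a block, and 4 with the variance trend or with the scan day or the replicate number as a block. Tbx20 and Hand2, which rose by 3.40 and 1.22 in WT cells, were not called at differences of -2.73 and -2.09 (adjusted p = 0.0513 and 0.0526). Isl1, a factor of the second heart field, fell by 2.74 in DKO cells (difference -1.99 ± 0.43). It had been at 8.40 and 7.68 in DKO Flk1(+) cells and at 6.73 and 5.48 in WT Flk1(+) cells, and was alike after culture, at 5.33 and 5.27 in DKO Dex- cells and 5.49 and 5.22 in WT Dex- cells. Its call was lost without replicate 1 of DKO Flk1(+) cells, at -1.63, or replicate 1 of WT Dex- cells, at -1.85. It was also lost without replicate 1 or 2 of DKO Dex- cells, at -2.02 and -1.96. Read as the mean of its probe sets, Isl1 was not called, at -1.84. Of the 13 nascent mesoderm genes 2 were higher, Eomes and Gsc, and 1, Aplnr, was lower. There were 5 higher without replicate 1 of WT Flk1(+) cells, and 3 lower without replicate 2 of DKO Flk1(+) cells. Gsc, a homeobox factor of the organizer, differed by 1.28 ± 0.30, and the call was lost without either DKO Dex- array or replicate 2 of any of the other groups, with values of 0.99 to 1.31.

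The muscle and matrix lists had few calls, and their counts depended on the parental arrays. Of the 22 mural and smooth muscle genes 1 was higher and 2 lower, with a median of 0.04, and without replicate 1 of WT Flk1(+) cells 1 was higher and 4 lower, with a median of -0.25. Des, which encodes the muscle filament protein desmin, was at 8.93 and 8.96 in DKO Dex- cells and at 6.72 and 6.69 in DKO Flk1(+) cells, against 6.75 and 6.61 in WT Dex- cells and 6.66 and 6.64 in WT Flk1(+) cells. Only DKO cells gained it (difference 2.21 ± 0.18, limma, adjusted p = 1.17e-05). Myl9, a myosin light chain, and Lmod1, an actin filament factor, were lower at -2.87 ± 0.63 and -1.06. Lmod1 is named to complete the count. Myl9 lost its call without replicate 2 of WT Flk1(+) cells, at -2.37, or without replicate 1 of DKO Dex- cells or either WT Dex- array, at -2.57 to -2.90. Of 22 fibroblast and collagen genes 1 was higher, Twist1 at 1.94, and 1 lower, S100a4 at -1.28, with a median of -0.29. Without replicate 1 of WT Flk1(+) cells 1 was higher and 5 lower, with a median of -0.88, without both parental Flk1(+) arrays 1 and 5, with a median of -0.99, and without replicate 2 of WT Flk1(+) cells 3 and none. Without replicate 1 of DKO Flk1(+) cells 1 was higher and 3 lower, and without replicate 2 of WT Dex- cells none and 3. Of 22 matrix remodelling genes 1 was higher, Adamts5 at 1.86, and none lower, and without both parental Flk1(+) arrays none was higher and 3 lower. The call of Twist1 was lost without any of the Dex- arrays or replicate 2 of either Flk1(+) group, with values of 1.72 to 2.09. That of S100a4 was lost without replicate 1 of either Dex- group or replicate 2 of either Flk1(+) group, at -1.09 to -1.18, and that of Adamts5 without replicate 1 of either Dex- group, at 1.54 and 1.70, or both parental Flk1(+) arrays, at 1.45. Adamts5 was also not called, at 1.19, when read as the mean of its probe sets. Twist1 is a factor of mesenchyme, S100a4 a calcium-binding protein of fibroblasts and Adamts5 a matrix protease.

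Signalling and growth genes differed one by one. Ccnd1 and Ccnd2, the D-type cyclins that start the cell cycle, were the only 2 of 26 cell cycle and replication genes called, both lower. Ccnd1 was at 6.64 and 7.45 in DKO Dex- cells and at 9.77 and 10.53 in DKO Flk1(+) cells, against 10.17 and 9.88 in WT Dex- cells and 9.81 and 10.69 in WT Flk1(+) cells. It fell by 3.11 in DKO cells, with a change of -0.23 in WT cells that was not called, a difference of -2.87 ± 0.44. Ccnd2 rose in both genotypes, by 1.42 in DKO cells and by 3.84 in WT cells (difference -2.42 ± 0.34). Of 23 Wnt pathway genes none was higher and 2 were lower, Dkk2 and Lef1. Leaving out replicate 1 of DKO Flk1(+) cells gave 1 higher and 4 lower. Dkk2, a secreted Wnt antagonist, was at 4.62 and 5.33 in DKO Dex- cells and at 3.93 and 4.24 in DKO Flk1(+) cells, against 7.88 and 7.91 in WT Dex- cells and 4.68 and 4.04 in WT Flk1(+) cells. Only the WT Dex- arrays stood above the rest (difference -2.65 ± 0.35). Lef1, a nuclear factor of the Wnt pathway, fell by 3.45 in DKO cells (difference -2.55 ± 0.43). Igf1, a growth factor, rose in WT cells alone and differed by -1.39 ± 0.18.

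Of 25 BMP and TGF-beta genes 2 were higher and none lower, Fst and Id2. With replicate 1 of WT Flk1(+) cells left out 2 were higher and 3 lower, and with replicate 2 of WT Flk1(+) cells left out 6 were higher and none lower. Id2, a BMP target, fell by 2.72 in WT cells (difference 3.25 ± 0.67), and its call was lost without replicate 1 of WT Dex- cells, at 2.82. Pdgfra, the PDGF receptor used in the sort, was at 8.91 and 8.91 in DKO Dex- cells and at 12.26 and 11.87 in DKO Flk1(+) cells, against 6.53 and 6.79 in WT Dex- cells and 11.90 and 12.83 in WT Flk1(+) cells. It fell in both genotypes and less in DKO cells (difference 2.54 ± 0.33). It was the single call among 16 genes of primitive endoderm. Of 25 genes of MHC class I and the interferon response 2 were higher and none lower, H2-D1 and H2-K1, which encode antigen-presenting molecules. Without replicate 2 of WT Flk1(+) cells 8 were higher, without replicate 2 of DKO Flk1(+) cells 4, without both parental Flk1(+) arrays 2 were higher and 4 lower, with a median of -0.23 in place of 0.29, and without the probe sets that can match other transcripts none was called. H2-K1 was at 9.46 and 9.42 in DKO Dex- cells and at 9.83 and 10.70 in DKO Flk1(+) cells, against 7.17 and 7.22 in WT Dex- cells and 10.08 and 10.21 in WT Flk1(+) cells (difference 2.13 ± 0.40). Its change of -0.82 in DKO cells was not called, and it fell by 2.95 in WT cells. These near-identical MHC genes can share probes, and H2-D1 was not called, at 0.88, when read as the mean of its probe sets. In the pluripotency list 2 of 24 were higher, Dppa5a, an RNA-binding protein of ES cells, at 1.75 ± 0.20 and Zfp42, a zinc finger factor also named Rex1, at 2.43 ± 0.63, and none lower. Without replicate 2 of WT Flk1(+) cells 6 were higher and 1 lower, without replicate 2 of DKO Flk1(+) cells 5 and none, and without replicate 1 of WT Flk1(+) cells 4 and 1. Zfp42 lost its call without any of the Dex- arrays or replicate 1 of DKO Flk1(+) cells, with values of 2.08 to 2.65, and was at 1.02 without both parental Flk1(+) arrays. It was also lost with the scan day, the replicate number or the pairs within a state as a block, with arrays centred on the median and without chromosome X. Nanog and Pou5f1, core factors of the pluripotent state, fell in both genotypes and had differences of -0.03 and 0.97 that were not called.

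**Figure D4:**
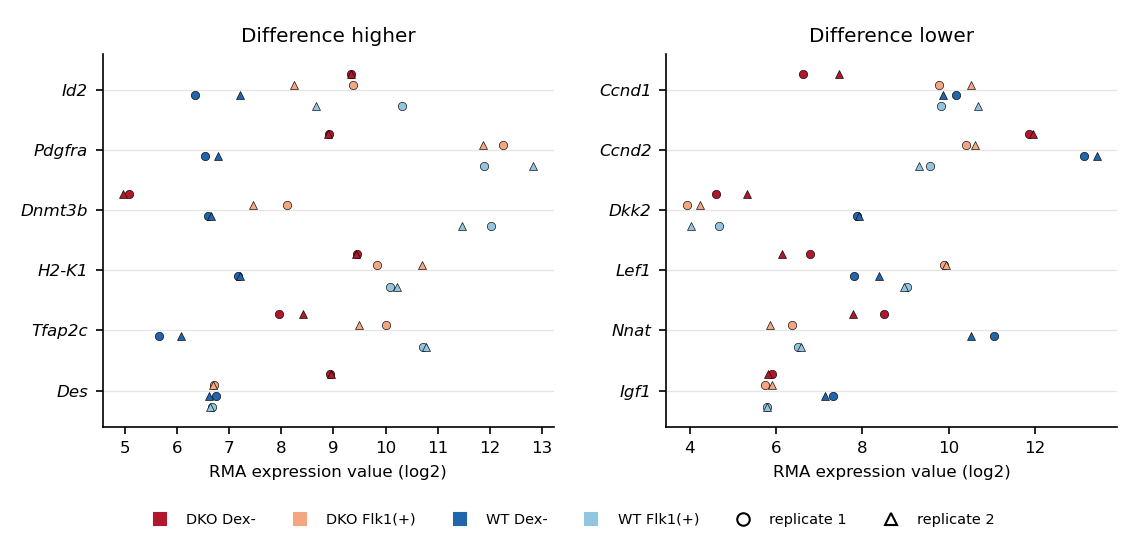
RMA expression value (log2, horizontal axis) in each of the 8 arrays for 12 called members of the gene lists, 6 with a higher difference (left) and 6 with a lower difference (right). The DKO Dex- arrays stand alone at Des and Ccnd1, and the WT Dex- arrays stand alone at H2-K1, Dkk2 and Igf1.

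Of the remaining lists, 3 of 29 Hox genes were lower, Hoxb2, Hoxb5 and Hoxb6, all of 1 cluster on chromosome 11, and none was higher. Their differences were -1.39, -1.67 and -1.05, and each call was lost without replicate 1 of DKO Flk1(+) or replicate 2 of DKO Dex- cells. Hoxb2 also lost it without replicate 1 of either Dex- group, Hoxb5 and Hoxb6 without replicate 2 of WT Dex- cells, and Hoxb2 and Hoxb5 without replicate 2 of WT Flk1(+) cells. Hoxb6 was at -0.88 and not called without both parental Flk1(+) arrays. The fits without single arrays that lost the call gave -0.99 to -1.48 for Hoxb2, -1.22 to -1.53 for Hoxb5 and -0.81 to -0.95 for Hoxb6. Over all alternatives, values reached -1.78 for Hoxb2, -2.12 for Hoxb5 and -1.30 for Hoxb6. Of 29 imprinted genes 1 was higher, Zdbf2 at 1.24, and 1 lower, Nnat at -2.19 ± 0.36, and the call of Zdbf2 was lost without replicate 1 of DKO Dex- or of DKO Flk1(+) cells, either WT Dex- array or replicate 2 of WT Flk1(+) cells, with values of 0.84 to 1.28. No retinoic acid pathway gene was called among 14.

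The lists of other cell types held single calls. Afp, the foetal plasma protein alpha-fetoprotein, was at 6.90 and 7.16 in DKO Dex- cells and at 5.25 and 5.06 in DKO Flk1(+) cells, against 4.91 and 4.79 in WT Dex- cells and 5.00 and 5.02 in WT Flk1(+) cells. It was the 1 call among 16 visceral endoderm genes (difference 2.03 ± 0.19), and the DKO Dex- arrays stood above all others. Fst was the 1 call, higher, among 14 genes of parietal endoderm and basement membrane. Tfap2c, a factor of trophoblast and germ cells, was the 1 call among 13 trophoblast genes, and fell by 1.57 in DKO cells and by 4.88 in WT cells (difference 3.32 ± 0.42). Its probe sets without possible matches to other transcripts gave 1.15, which was not called. Ncam1, a cell adhesion molecule, was the 1 call among 19 neural genes at 2.30, and Esrp1 and Grhl2, a splicing factor and a transcription factor of epithelia, were the 2 among 19 epithelial genes at 2.06 and 1.94. The epithelial counts were 2 higher and 3 lower without replicate 1 of WT Flk1(+) cells, and without replicate 2 of WT Flk1(+) cells 4 were higher. Tfap2c, Ncam1, Esrp1 and Grhl2 were higher. Read as the mean of their probe sets, Ncam1 and Grhl2 were not called, at 0.95 and 0.62.

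Of 18 cytokine and chemokine genes 1 was higher, Il33, and 2 were lower, Cxcl12 and Igf1. Of 20 immediate early genes 1 was higher, Ier3 at 2.52, and 2 were lower, Maff at -2.13 and Fos at -1.27. Ier3, a stress-response gene, lost its call without replicate 1 of WT Dex- cells, at 2.13, or both parental Flk1(+) arrays, at 1.80, and Maff, a small Maf factor, without replicate 2 of DKO Dex- cells, at -1.99. Fos, a subunit of AP-1, lost it without any 1 array but replicate 1 of WT Flk1(+) cells, with values of -1.10 to -1.43. Of 10 genes of the DNA methylation machinery Dnmt3b was higher, and Uhrf1, which guides the maintenance methyltransferase, was lower at -1.38. Dnmt3b is 1 of the deleted genes, and it fell in both genotypes and less in DKO cells. The calls of Uhrf1, of Csf1r, a receptor of macrophages, of Eng, a TGF-beta co-receptor of vessels, and of Esrp1 were each lost without either DKO Dex- array. They were also lost without both parental Flk1(+) arrays (0.87) and replicate 1 of DKO Flk1(+) cells for Eng, replicate 2 of DKO Flk1(+) cells for Uhrf1 and Csf1r, either WT Dex- array for Csf1r and Esrp1, replicate 1 of WT Dex- cells for Uhrf1 or replicate 2 for Eng, and replicate 1 of WT Flk1(+) cells for Uhrf1 or replicate 2 for Esrp1. With these arrays left out, values ranged from -1.17 to -1.46 for Uhrf1, 2.02 to 2.47 for Csf1r, 0.83 to 1.01 for Eng and 1.97 to 2.16 for Esrp1. Uhrf1 was also not called, at -1.20, when read as the mean of its probe sets.

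The called genes were set beside the other 12 arrays, whose levels did not enter the difference. Their spread did enter the error of each gene, both for the difference and for the gaps given here. The calls of the difference and of these gaps are thus not independent, and the shares are given as a description. In Dex+ cells, cultured for the same time with Dex, 121 of the 332 higher genes were higher in DKO than in WT cells (36.4%) and 18 were lower, where 4.81% of all genes were higher and 4.83% lower. Of the 197 lower genes 107 were lower in DKO Dex+ cells (54.3%) and 7 higher. Dex+ cells carry the Gata4 response besides the culture, and come from the same 2 clones. In ES cells, where 1.39% of all genes were called, 29 of the 332 higher genes were higher in DKO cells (8.7%, against 1.12% of all genes) and 4 lower, and of the 197 lower genes none was lower (against 0.269%) and 4 higher. In primitive endoderm, where 1.96% were called, 43 of the 332 were higher in DKO cells (13.0%, against 1.13%) and 12 lower, and 10 of the 197 were lower (5.1%, against 0.824%) and 2 higher.

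X-linked genes were called lower more often than other genes. Of 617 X-linked genes 39 were lower (6.32%, against 1.08% of all genes) and 12 higher (1.94%, against 1.82%). Of the 39, 17 fell in DKO cells with no call in WT cells, 11 rose in WT cells with no call in DKO cells, 3 fell in DKO and rose in WT cells, 4 fell in both and 4 were called in neither. In Dex- cells 35 of them were lower in DKO than in WT cells and in Flk1(+) cells none was lower and 1 higher. Of all genes 2.34% were lower in DKO than in WT Dex- cells. The difference is made of both gaps, and nothing is read from these counts. Without replicate 1 or 2 of DKO Dex- cells 30 or 29 genes of the X chromosome were lower, and 26 without replicate 2 of WT Dex- cells. Zfp711, a zinc finger factor, was at 7.30 and 6.93 in DKO Dex- cells and at 9.65 and 9.95 in DKO Flk1(+) cells, against 10.62 and 10.40 in WT Dex- cells and 7.90 and 8.86 in WT Flk1(+) cells. It went opposite ways in the genotypes, with a difference of -4.81 ± 0.41. Stard8 did so too, at -3.75 ± 0.58. Tmem47 fell by 4.62 in DKO cells and by 1.25 in WT cells, and Dcaf12l1 rose by 3.59 in WT cells with no call in DKO cells. They differed by -3.37 ± 0.34 and -3.41 ± 0.68, and the call of Dcaf12l1 was lost without replicate 2 of WT Dex- cells, at -3.04.

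The shift of the X chromosome was small and broad. Over 305 X-linked genes with a mean of at least 7, the median of DKO minus WT was -0.28 in replicate 1 and -0.40 in replicate 2 of Dex- cells, and 0.01 and 0.11 in Flk1(+) cells. It was -0.09 in Dex+ cells, 0.00 in ES cells and -0.04 in primitive endoderm. The median of the X-linked genes minus that of the autosomal genes was 0.02 and -0.16 in DKO Dex- cells and 0.29 and 0.29 in DKO Flk1(+) cells, against 0.32 and 0.30 in WT Dex- cells and 0.26 and 0.13 in WT Flk1(+) cells. The DKO Dex- arrays were thus the lowest of the 8, and were also the arrays with the highest Xist values. At Xist the gap of DKO over WT cells was 5.64 in Dex- cells, and 4.80 in Dex+ cells, where the X-linked median was -0.09. The part of Xist in these values was not tested. The Y-linked Eif2s3y, a translation factor gene, lay between 9.82 and 11.19 in all 8 arrays. Among the other Y-linked genes, Uba1y was higher, at 8.93 and 8.73 in DKO Dex- cells and 6.38 and 6.30 in DKO Flk1(+) cells, against 4.22 and 4.25 in WT Dex- cells and 4.53 and 4.30 in WT Flk1(+) cells (difference 2.67 ± 0.28), and was named after its values were seen. It encodes a ubiquitin-activating enzyme found mainly in the testis. The Y-linked Kdm5d and Uty had differences of 1.02 and -0.004 that were not called. Kdm5d was higher in DKO than in WT cells both before and after culture, by 1.82 in Flk1(+) and 2.84 in Dex- cells.

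Chromosome 11 differed between the arrays of the clones and the parental arrays. Of its 1443 genes 36 were higher (2.49%) and 6 lower (0.416%). Over its genes with a mean of at least 7, the median of DKO minus WT was 0.33 and 0.37 in the 2 replicates of Dex- cells, -0.01 in the parental Flk1(+) arrays and 0.41 in the Flk1(+) arrays of the clones. In the other states, all of the clones, it was 0.09 and 0.30 in the replicates of ES cells, 0.29 and 0.33 in primitive endoderm and 0.34 and 0.43 in Dex+ cells. The parental Flk1(+) arrays and replicate 1 of ES cells were of 1 chip lot that no other arrays shared, so that line and chip lot cannot be told apart in Flk1(+) cells. Without the parental Flk1(+) arrays 25 genes of this chromosome were higher and 25 lower, and without that of WT cells alone 33 and 22. With its genes left out, a choice made after seeing the data, 488 genes were called, 297 higher and 191 lower. Tex19.1 and the 3 Hox genes lie on this chromosome, and the part of line or lot in their calls was not tested. Chromosome 8 showed a smaller shift the other way. Its median of DKO minus WT was -0.18 and -0.22 in the replicates of Dex- cells. In Flk1(+) cells it was -0.05 in the parental arrays and -0.17 in the arrays of the clones.

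**Figure D5:**
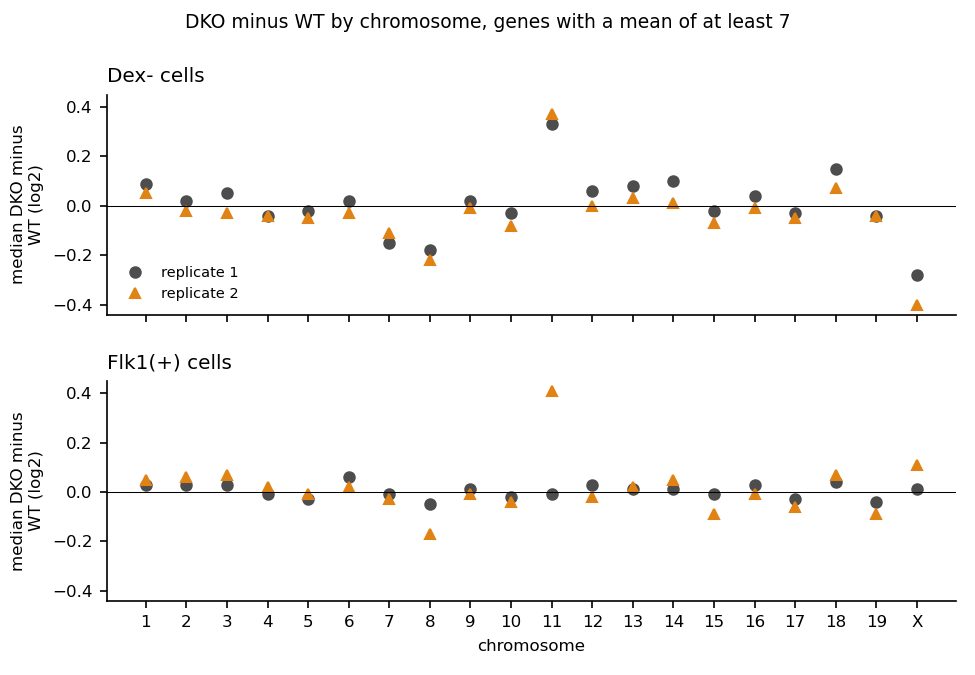
Median of DKO minus WT (log2, vertical axis) over the genes of each chromosome with a mean of at least 7, for each replicate of Dex- cells (top) and Flk1(+) cells (bottom). Chromosome X lies at -0.28 and -0.40 in Dex- cells only, and chromosome 11 lies at 0.33 to 0.41 in the 3 pairs of arrays of the clones and at -0.01 in the parental Flk1(+) arrays.

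The promoter windows of the called genes, a property that the difference did not use, are given as a description. Windows with at least 15 CpGs made up 53.4% of 208 higher genes with 1 window and 57.4% of 108 lower genes, beside 56.4% of all genes. Among the higher genes the share differed with the kind of change. It was 39.8% of the 118 genes that rose in DKO cells with no call in WT cells, with a median of 11.5 CpGs, and 78.4% of the 37 genes that fell in WT cells with no call in DKO cells, with a median of 21. All 8 called germ cell genes with a window had at least 15, and so did 76.2% of the 21 measured members of that list with a window. Methylation was not measured in these samples.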

How the data were processed

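RNA of each culture (50 ng, amplified in 2 cycles) was hybridised to Affymetrix mouse genome arrays (MOE430v2), 1 colour and 1 array per sample. The authors deposited log2 expression values made with RMA, which corrects background, quantile normalises and summarises probes, and so sets equal distributions on all arrays; the RMA version, and whether all 20 arrays were summarised together, are not given in the sources used here. Array medians were 5.79 to 5.87. The number of arrays limits the precision. Scan day and chip lot came from the deposited experiment information (a category, not a measurement). Array 1 of Flk1(+) and of Dex- cells of both genotypes shared a scan day, and the second arrays of Flk1(+) and of Dex- cells had a day each, with as many DKO as WT arrays on every day.

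Of 45101 probe sets, 34958 carried 1 gene symbol, 932 several and 9211 none; for each gene the single-symbol probe set of highest average level in the series was kept, which gave 18194 genes, 18033 of them in the RefSeq table of GRCm38.p6. limma 3.58.1 (R 4.3.3) fitted 1 mean per group over all 20 arrays (lmFit, eBayes, 10 residual degrees of freedom), and p-values were adjusted by Benjamini-Hochberg over all genes. A call needed an adjusted p under 0.05 and a change of at least 2-fold. SAM, which the methods name, was not run. Replicates are labelled as biological, but all arrays of a genotype come from 1 line and its clone, so p-values do not cover the spread between independent lines. They rest on the spread between replicate arrays, pooled for each gene over the 10 groups. In Flk1(+) cells this spread also holds the step from parental line to clone and from 1 chip lot to another. The script was tested on simulated data.

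Genes named were the 12 largest increases and decreases among called genes with a gene name, up to 6 members with the largest difference per list, and Dnmt3a, Dnmt3b, Gata4, Kdr, Pdgfra and Acta2; exceptions are marked. The 28 lists had 588 entries, of which 549 were measured. The comparison, the members and the lists were chosen with earlier results of these data known. Lists are described by counts and medians only. Alternatives changed the probe set, the filter on low values, the scaling, the arrays in the fit, the variance trend, the minimum fold, the scan day or the replicate number as a block, and left out each array or both parental Flk1(+) arrays; leaving out chromosome 11 or X was added after seeing the data.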

Additional observations from a re-analysis of the deposited data

Results flagged for a closer look

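The change during culture differed between the genotypes by a test of that difference itself (limma, DKO change minus WT change) in 529 genes, of which 65 are given here by the naming rule. Among these, in log2, the positive differences over 3 were 6.30 for Fst, 5.44 for Fgf5, 5.35 for Trap1a, 5.20 for Xist, 4.98 for Laptm5, 4.90 for Morc1, 4.81 for Hpgd, 4.62 for Serpinb1a, 4.52 for Car2, 4.09 for Sprr2f, 4.04 for Il33, 3.90 for Eomes, 3.40 for Dazl, 3.39 for Asz1, 3.21 for Sohlh2, 3.01 for Tex19.1, 3.25 for Id2 and 3.32 for Tfap2c. Smaller ones were 2.21 for Des, 2.40 for Csf1r, 2.64 for Ddx4, 2.55 for Mael, 2.23 for H2-D1, 2.13 for H2-K1, 2.43 for Zfp42, 2.54 for Pdgfra, 2.03 for Afp, 2.06 for Esrp1, 2.52 for Ier3, 2.37 for Dnmt3b and 2.30 for Ncam1. The positive values under 2 were 1.94 for Twist1, 1.86 for Adamts5, 1.28 for Gsc, 1.01 for Eng, 1.24 for Zdbf2, 1.75 for Dppa5a and 1.94 for Grhl2. The negative differences beyond -3 were -4.81 for Zfp711, -4.81 for Aard, -4.66 for Aplnr, -4.23 for Foxf1, -3.75 for Stard8, -3.70 for Cemip, -3.41 for Dcaf12l1, -3.39 for Ctla2a, -3.37 for Tmem47, -3.35 for Cxcl12, -3.18 for Flt1 and -3.16 for Vgll2. Those between were -2.87 for Myl9, -1.99 for Isl1, -2.19 for Nnat, -2.13 for Maff, -2.87 for Ccnd1, -2.42 for Ccnd2, -1.67 for Hoxb5, -2.65 for Dkk2 and -2.55 for Lef1. The smallest negative values were -1.28 for S100a4, -1.39 for Igf1, -1.27 for Fos, -1.38 for Uhrf1, -1.39 for Hoxb2 and -1.05 for Hoxb6.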

How the results depend on the processing

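The 529 calls of the difference moved beyond 1.5 times under 2 alternatives, with 129 when only the 8 arrays were fitted and 809 with the replicate block within state. No other alternative moved the total that far: leaving out single arrays gave 383 to 753, leaving out both parental Flk1(+) arrays 769, the replicate block over all arrays 553 and the scan day block 609. The 8-array fit leaves fewer arrays for the error, and leaves out groups whose replicates lay closer than those of Flk1(+) cells. In those groups replicates differed 2-fold or more in 20 (WT primitive endoderm) to 256 genes (WT Dex+), against 698 and 880 in Flk1(+) cells. That fit still gave 2802 calls of the DKO change and 733 of the Dex- gap. The pooled error may thus be too small for the difference, which was not tested. The DKO change gave 5874 calls with no minimum fold and 2888 to 3173 without single arrays, the WT change 5359 and 2558 to 3187, and the Dex- gap 2297 and 913 to 1148. The Flk1(+) gap of 127 genes moved most, with 206 with no minimum fold, 22 with only the 8 arrays, 211 with the replicate block within state, 551 without both parental arrays and 97 to 394 without single arrays. Of the 65 called genes that the naming rule gives, which leaves out Stk31, Sycp1, Hormad1, Rpl39l, Lmod1 and Uba1y, 28 kept their call under every alternative that could be run, 37 lost it under at least 1, and none changed direction. The labels do not say that replicate numbers pair the arrays, and over all group pairs the deviations of same-numbered arrays correlated between -0.17 and 0.31. Between DKO and WT arrays of 1 state, which share scan day and chip lot, they correlated at 0.18 in Dex- and 0.31 in Flk1(+) cells, and that block ended the calls of Gsc and Zfp42 among the named genes. Where no cause is given, the cause was not tested. Limits are the 2 arrays per group, the 1 clone per genotype and the parental origin of replicate 1 of the Flk1(+) arrays. Another is the unequal plating of the genotypes.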
